A study of Mus musculus with 2 samples.

Results

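The 8 genes examined here belong to the caspase cascade and to mitochondrial cell death, and they were set beside all 21887 protein-coding genes for binding of DPPA2. They are the initiator caspases Casp2, Casp8 and Casp9, the executioner caspase Casp6, the apoptosome genes Apaf1 and Cycs, and the mitochondrial effectors Diablo and Endog. The genes were chosen by name, with earlier results of these data known, and all 8 were found in the RefSeq gene table of mm10. A peak was assigned to a gene by its summit, the position of highest coverage: at a gene end when the summit lay within 1 kb of either end, in the gene body when it lay further inside, and within reach when it lay inside or up to 50 kb outside. DPPA2 was mapped by ChIP-seq, in which chromatin is crosslinked and sheared, pulled down with an antibody and sequenced. There was 1 library from cells given adriamycin for 8 h and 1 library from untreated cells, with no replicate, so each comparison is between 2 libraries and carries no test. Both groups were R1/E cells, a single mouse embryonic stem cell line with wild-type p53, grown in serum and leukemia inhibitory factor on gelatin. Adriamycin (doxorubicin) is a topoisomerase poison that breaks DNA. The treated sample's label holds the treatment in place of a genotype, and its p53 status is that of the design text. Peak lists hold no expression values, so the labelled cell type was not checked against markers.

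Caspases are cysteine proteases that are made as inactive precursors. Initiator caspases are activated on adaptor platforms and cut the executioner caspases, which then cleave many cell proteins. In the mitochondrial route, cytochrome c leaves the mitochondrion and binds APAF1 to form the apoptosome, which activates caspase 9. SMAC, encoded by Diablo, leaves with it and relieves caspases of their inhibitors, and the nuclease of Endog can reach the nucleus and cut DNA. DPPA2, a SAP-domain protein found in pluripotent cells and the germline, works together with DPPA4 and binds many CpG-rich promoters. The series concerns DPPA2 and p53 in the death of stem cells after DNA damage.

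Casp6 and Endog were the members with a DPPA2 peak at their start, and both peaks were in the adriamycin list. Neither start region overlapped an untreated peak, but the untreated list held 7043 peaks and the adriamycin list 16229. With lists of equal length, neither gene had a gene-end peak in either list. The promoter sequences of Casp6 and Endog are shown because they lie at the start peaks. Those of Apaf1 and Diablo are shown because they are the most CpG-rich of the 8 and had no peak at an end. Each runs 5′ to 3′ from 250 bases before the start to 50 bases after it, on the gene's own strand, as given by RefSeq for GRCm38.p6, the build of mm10. Capitals mark CpG dinucleotides.
Casp6, chr3:129901165-129901464, plus strand: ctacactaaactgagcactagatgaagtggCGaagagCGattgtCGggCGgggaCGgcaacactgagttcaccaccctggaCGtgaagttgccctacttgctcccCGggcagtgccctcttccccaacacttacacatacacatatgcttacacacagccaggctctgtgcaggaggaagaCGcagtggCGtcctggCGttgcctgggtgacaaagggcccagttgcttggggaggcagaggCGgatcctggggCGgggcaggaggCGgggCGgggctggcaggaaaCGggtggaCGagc
Endog, chr2:30171274-30171573, plus strand: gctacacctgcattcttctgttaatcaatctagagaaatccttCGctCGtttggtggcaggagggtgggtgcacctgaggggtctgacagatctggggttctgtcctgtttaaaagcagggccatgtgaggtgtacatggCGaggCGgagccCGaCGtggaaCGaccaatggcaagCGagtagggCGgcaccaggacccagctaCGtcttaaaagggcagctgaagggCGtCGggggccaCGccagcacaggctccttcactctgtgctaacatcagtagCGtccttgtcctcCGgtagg
Apaf1, chr10:91082694-91082993, minus strand: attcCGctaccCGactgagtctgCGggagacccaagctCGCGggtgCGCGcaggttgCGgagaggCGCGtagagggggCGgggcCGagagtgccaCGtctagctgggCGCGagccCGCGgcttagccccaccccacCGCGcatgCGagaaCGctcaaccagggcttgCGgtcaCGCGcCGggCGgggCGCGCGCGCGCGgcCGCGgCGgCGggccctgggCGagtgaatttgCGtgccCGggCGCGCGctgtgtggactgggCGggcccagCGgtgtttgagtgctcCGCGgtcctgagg
Diablo, chr5:123524115-123524414, minus strand: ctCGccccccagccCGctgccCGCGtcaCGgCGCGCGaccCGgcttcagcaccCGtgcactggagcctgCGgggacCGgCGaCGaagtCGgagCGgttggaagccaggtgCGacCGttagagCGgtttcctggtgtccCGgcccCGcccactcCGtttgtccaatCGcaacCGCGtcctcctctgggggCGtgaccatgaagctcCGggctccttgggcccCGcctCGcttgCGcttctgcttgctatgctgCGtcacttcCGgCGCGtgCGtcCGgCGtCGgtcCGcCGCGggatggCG
The last 102 bases of the Casp6 window, from 129901363 to 129901464, lay inside the called peak. The Endog peak began 8 bp past the last base of its window, on the transcribed side. The Casp6 window held 16 CpG dinucleotides and that of Endog 15, close to the median of 13 over 17492 protein-coding genes with a listed start (quartiles 3.75 and 24). The Apaf1 window held 46 and the Diablo window 42.

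Adriamycin gene-end peaks were called at 2 of the 8 members (25.0%), against 16.0% of all protein-coding genes. Untreated gene-end peaks were called at 0 of 8, against 5.78% of all genes. The background shares correspond to 1.28 and 0.463 of 8 genes, so the members' counts lay within 1 gene of them. With gene bodies counted as well, 3 of 8 had a peak in the adriamycin list (30.2% of all genes) and 1 of 8 in the untreated list (13.2%). Within reach of 50 kb it was 7 of 8 (66.6% of all genes) and 4 of 8 (36.4%). The background shares for reach correspond to 5.32 and 2.92 of 8 genes. Counted from listed starts alone, within 1 kb, 2 of 8 were called with adriamycin (15.8% of genes with a listed start) and 0 of 8 untreated (5.91%). The summit nearest the inner edge of the 1 kb window was one 938 bp from Casp6, and the next one outside the gene ends lay 11598 bp from Endog. These counts depended on the weaker peaks. For gene ends and bodies together, lists of equal length gave 0 members with adriamycin (13.4% of all genes) and 1 untreated, Casp8 (13.2%). A q of at most 1e-05 also gave 0 (15.9%) and 1 (6.14%), and a fold of at least 5 gave 1 in each list (15.5% and 6.25%).

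**Figure D1:**
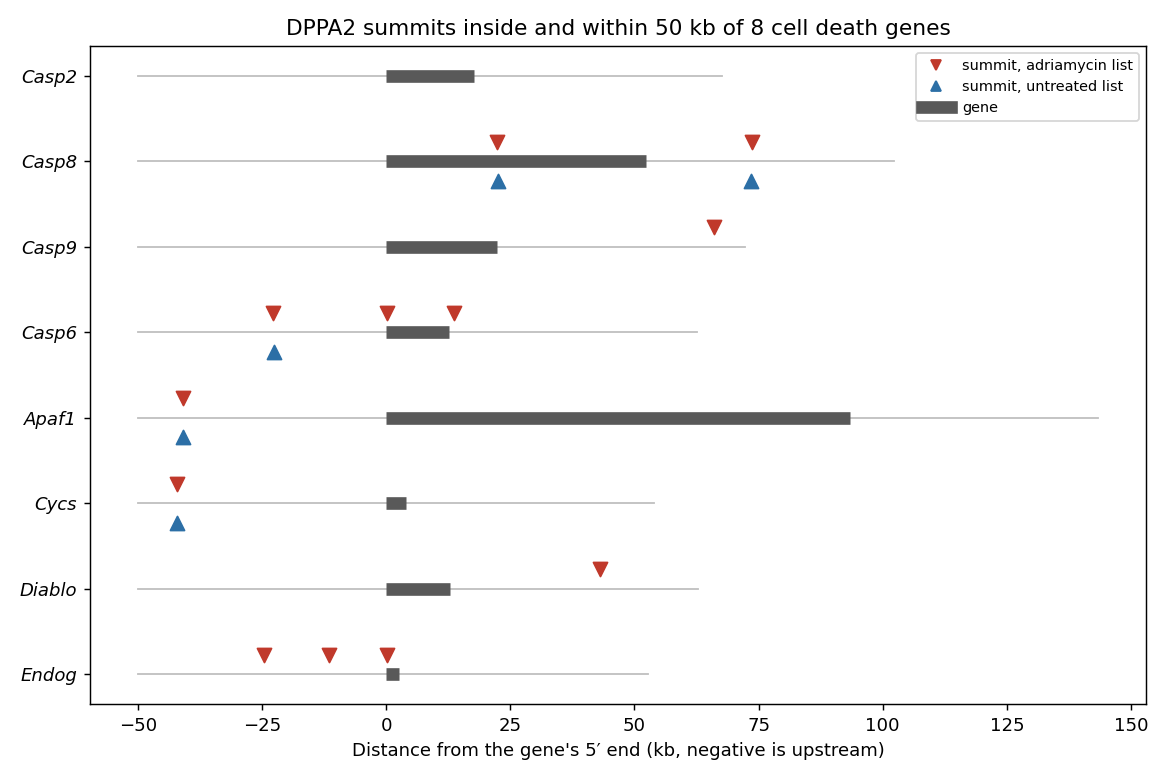
Positions of DPPA2 summits around the 8 genes, with distance from the gene's 5′ end in kb on the horizontal axis. Grey bars are genes, thin lines reach 50 kb to each side, red triangles above are summits of the adriamycin list and blue triangles below those of the untreated list. Of 12 adriamycin summits 3 lie at gene ends, at Casp6 and Endog, and the 5 untreated summits each have an adriamycin summit beside them.

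Within reach of the members lay 12 adriamycin peaks and 5 untreated peaks. All 5 untreated peaks overlapped an adriamycin peak by at least 1 bp, with summits 13 to 197 bp apart, where 79.7% of the whole untreated list did. Of the 12 adriamycin peaks 5 (41.7%) overlapped an untreated one, against 34.4% of the whole adriamycin list, and 7 did not. None of the 5 shared sites was at a gene end of a member, and 1 lay in the body of Casp8. The member peaks were of ordinary strength. The median fold enrichment, the authors' ratio of summit over local background, was 4.87 (range 4.27 to 7.09) in the adriamycin list, where all peaks had a median of 5.10, and 6.15 (4.20 to 8.70) in the untreated list, where all had 5.16. Folds are not scaled between libraries, and a difference between them shows no change.

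Fragment coverage at each summit (the pileup) was recovered from the deposited fold and p. Pileups of member peaks ran from 9 to 19 fragments with adriamycin and from 11 to 24 untreated, and the median over all peaks was 14 in each list. The lowest background recovered, taken to be genome-wide, was 1.03 fragments with adriamycin and 1.19 untreated. Local background at member peaks was 1.00 to 2.37 times that value with adriamycin and 1.09 to 2.36 times untreated. Pileup intervals given below are exact Poisson 95% intervals and cover counting error only. Each summit is the highest point of a peak that passed the caller, and the intervals do not allow for that selection. No input profile was used here.

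Among the initiator caspases, Casp8, activated at death receptors, was the only member with a peak in its body, and it was called in both lists. Casp8 (chromosome 1, 58795233 to 58847503) had its adriamycin peak at 58817503 to 58817785, with a fold of 5.43, a −log10 q of 4.599 and a pileup of 10 (4.795 to 18.4). The untreated peak at 58817586 to 58817806 had a fold of 6.15, a −log10 q of 6.46 and a pileup of 14 (7.65 to 23.5). The summits were 69 bp apart and lay 15148 bp (adriamycin) and 15217 bp (untreated) from the start that RefSeq lists, so this is a site inside the transcribed region and away from the start. The gene table has no exons, and whether the site is exonic or intronic was not analysed here.

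A second shared site lay beyond the higher-coordinate end of Casp8, inside the neighbouring gene model Gm28802. Its adriamycin summit was 21361 bp from the end of Casp8, with 4.58-fold enrichment and 13 fragments (6.92 to 22.2), and its untreated summit 21299 bp from it, with 6.54-fold enrichment and 24 fragments (15.4 to 35.7). Scaled to each library's background, the pileup ratio of adriamycin over untreated was 0.829 (0.329 to 2.01) in the body of Casp8 and 0.629 (0.294 to 1.28) beyond its end. Both intervals include 1, but the median of this ratio over all shared peaks was 1.32, so 1 is not its usual value. The interval in the body of Casp8 included that median, and the one beyond its end stopped just short of it. The scaling used the genome-wide background, while local background beyond the end was 2.00 (adriamycin) and 2.36 (untreated) times that value. The intervals cover counting error alone, in 1 library per group and at summits called in both lists. No change of binding is read from them.

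Casp9, the caspase of the apoptosome, had no peak at its ends or in its body in either list. Casp9 (chromosome 4, 141793612 to 141815978) had 1 peak within reach, in the adriamycin list, at 141859402 to 141859634 with 4.52-fold enrichment and 13 fragments (6.92 to 22.2). That summit was 43589 bp from the end of Casp9 and inside Efhd2, 1425 bp from the far end of that gene. The nearest untreated summit to Casp9 was 164120 bp from it.

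Casp2, the caspase that the PIDDosome activates, had no peak within 50 kb in either list. The nearest summits to Casp2 (chromosome 6, 42264902 to 42282508) were 67618 bp away in the adriamycin list and 90514 bp away in the untreated list. In the adriamycin list 72.8% of protein-coding genes had a nearer summit, and in the untreated list 49.3% did.

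Casp6, an executioner that cleaves nuclear lamins, had peaks at both ends in the adriamycin list and at neither in the untreated list. Casp6 (chromosome 3, 129901415 to 129914112, plus strand) had its start peak at 129901363 to 129901604, with the summit 84 bp inside the gene, a fold of 4.27, a −log10 q of 2.86 and a pileup of 9 (4.12 to 17.1). It was the weakest of the 12 adriamycin peaks: 10.9% of the adriamycin list had a lower −log10 q. The summit also lay 68 bp from the start of the lncRNA gene Gm46825, which is on the opposite strand and overlaps the start of Casp6, so the peak cannot be given to 1 of these genes.

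The peak at the other end of Casp6 was at 129914853 to 129915195, with a fold of 4.88, a −log10 q of 4.10 and a pileup of 11 (5.49 to 19.7). Its summit was 938 bp beyond the end of Casp6 and near the edge of the 1 kb window. It lay inside Mcub, a gene for a subunit of the mitochondrial calcium uniporter, 90 bp from the far end of that gene. A further site, called in both lists, lay upstream at the lower-coordinate end of the phospholipase gene Pla2g12a in the gene table. Its adriamycin summit was 22729 bp from Casp6 and 80 bp from that end of Pla2g12a, with 5.04-fold enrichment and 13 fragments (6.92 to 22.2). The untreated summit was 22532 bp from Casp6 and 277 bp from Pla2g12a, with 4.20-fold enrichment and 11 fragments (5.49 to 19.7). From the start that RefSeq lists for Pla2g12a the summits were 2498 bp (adriamycin) and 2301 bp (untreated). The scaled ratio of adriamycin over untreated there was 1.37 (0.567 to 3.38).

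**Figure D2:**
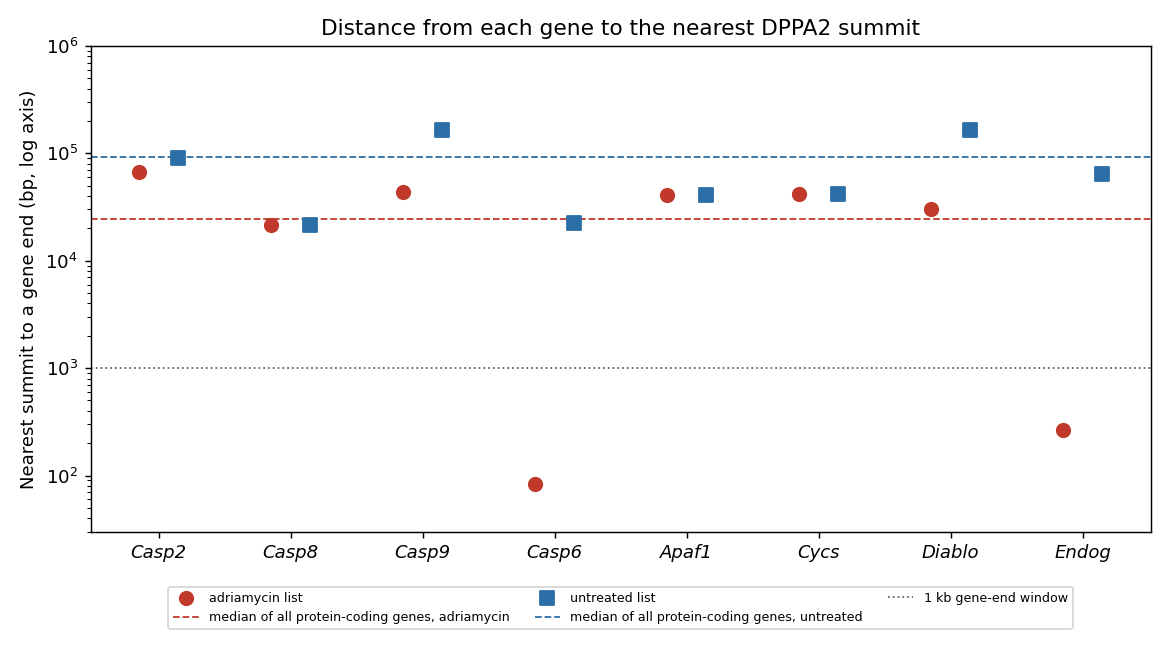
Distance in bp from an end of each gene to the nearest summit, on a log axis, for the adriamycin list (red circles) and the untreated list (blue squares). Dashed lines are medians over all protein-coding genes, 24686 bp adriamycin and 93179 bp untreated, and the dotted line is the 1 kb window. Casp6 at 84 bp and Endog at 268 bp in the adriamycin list are the points under it.

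Of the apoptosome genes, Apaf1 and Cycs had no peak at an end or in the body, and each had 1 site within reach, called in both lists. Apaf1 (chromosome 10, 90989311 to 91082743, minus strand) encodes the scaffold of the apoptosome. The adriamycin peak near it, at 91123443 to 91123842, had a fold of 7.09, a −log10 q of 10.03 and a pileup of 19 (11.4 to 29.7). The untreated peak at 91123550 to 91123757 had a fold of 5.41, a −log10 q of 5.996 and a pileup of 16 (9.15 to 26.0). The summits lay 40837 bp (adriamycin) and 40868 bp (untreated) upstream of Apaf1. They were also 387 bp and 356 bp from the listed start of Slc25a3, the gene of the mitochondrial phosphate carrier, inside that gene. This was the strongest of the 12 adriamycin peaks by −log10 q, above 85.5% of its list, and it lay at the start of another gene. The scaled ratio was 1.38 (0.671 to 2.87).

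Cycs (chromosome 6, 50562563 to 50566569, minus strand) encodes somatic cytochrome c. The adriamycin peak upstream of it, at 50608433 to 50608714, had a fold of 6.14, a −log10 q of 6.43 and a pileup of 13 (6.92 to 22.2). The untreated peak at 50608450 to 50608719 had a fold of 8.70, a −log10 q of 12.3 and a pileup of 19 (11.4 to 29.7), the highest fold among the 5 untreated member peaks. The summits were 13 bp apart, 42040 bp (adriamycin) and 42053 bp (untreated) from Cycs, and beside the pseudogene Gm4782, 28 bp and 15 bp from its end. The scaled ratio was 0.794 (0.360 to 1.69). Over all 5574 shared peaks with recovered pileups the median ratio was 1.32 (quartiles 1.07 and 1.59). The ratios in and beyond Casp8 and near Cycs lay under that lower quartile, and those near Casp6 and Apaf1 above that median. The interval beyond Casp8 ended at 1.28, below the median of all shared peaks, and the other 4 included it. These intervals cover counting error alone, in 1 library per group. No change at any of the 5 sites is read from them.

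Of the mitochondrial effectors, Endog had 3 adriamycin peaks within reach and Diablo had 1, and neither gene had an untreated one. Endog (chromosome 2, 30171408 to 30174069, plus strand) encodes endonuclease G. Its gene-end peak at 30171581 to 30172059 had a fold of 4.65, a −log10 q of 4.81 and a pileup of 15 (8.40 to 24.7). The summit was 268 bp inside the gene by the gene table and 152 bp from the start that RefSeq lists. At 479 bp it was longer than the median adriamycin peak of 314 bp, and 45.4% of the adriamycin list had a lower −log10 q.

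The other sites near Endog lay upstream. One was at 30159707 to 30159974 in the pseudogene Slc39a1-ps, 11598 bp from Endog, with 5.97-fold enrichment and 15 fragments (8.40 to 24.7). The other was at 30146717 to 30147032 inside Tbc1d13, 24569 bp from Endog, with 4.87-fold enrichment and 14 fragments (7.65 to 23.5). The nearest untreated summit to Endog was 63846 bp away.

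Diablo (chromosome 5, 123511330 to 123524164, minus strand) encodes SMAC, which binds inhibitor of apoptosis proteins. Its only peak within reach, in the adriamycin list at 123480958 to 123481157, had 4.68-fold enrichment and 12 fragments (6.20 to 21.0). The summit was 30327 bp beyond the far end of Diablo and inside Il31, a cytokine gene, 851 bp from an end of it. The nearest untreated summit to Diablo was 166420 bp away.

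Absence from the untreated list was not a measure of absent coverage. At the Casp6 start a like local background (within 10% of 1.30 times the genome-wide value) was called in the untreated list from 8 fragments upward, and the adriamycin pileup was 9 (4.12 to 17.1). At the other end of Casp6 the corresponding untreated limit was 8 fragments for an adriamycin pileup of 11, and at the Endog start it was 11 fragments for 15 (8.40 to 24.7). For all 7 adriamycin member peaks without an untreated counterpart, the lower bound of the pileup interval as recovered lay under the lowest untreated pileup called at such a background. With pileups scaled by the ratio of the backgrounds (1.16), this held for 6 of 7. The exception was the Endog site in Slc39a1-ps, with a scaled lower bound of 9.74 against a limit of 9. The same count over the whole adriamycin list was not made, so these counts cannot be called a trait of the members. A peak list gives no coverage where no peak was called, so untreated coverage at these 7 sites is unknown. The comparison with the limits therefore shows neither a difference nor the lack of one at any of them, the Slc39a1-ps site included.

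**Figure D3:**
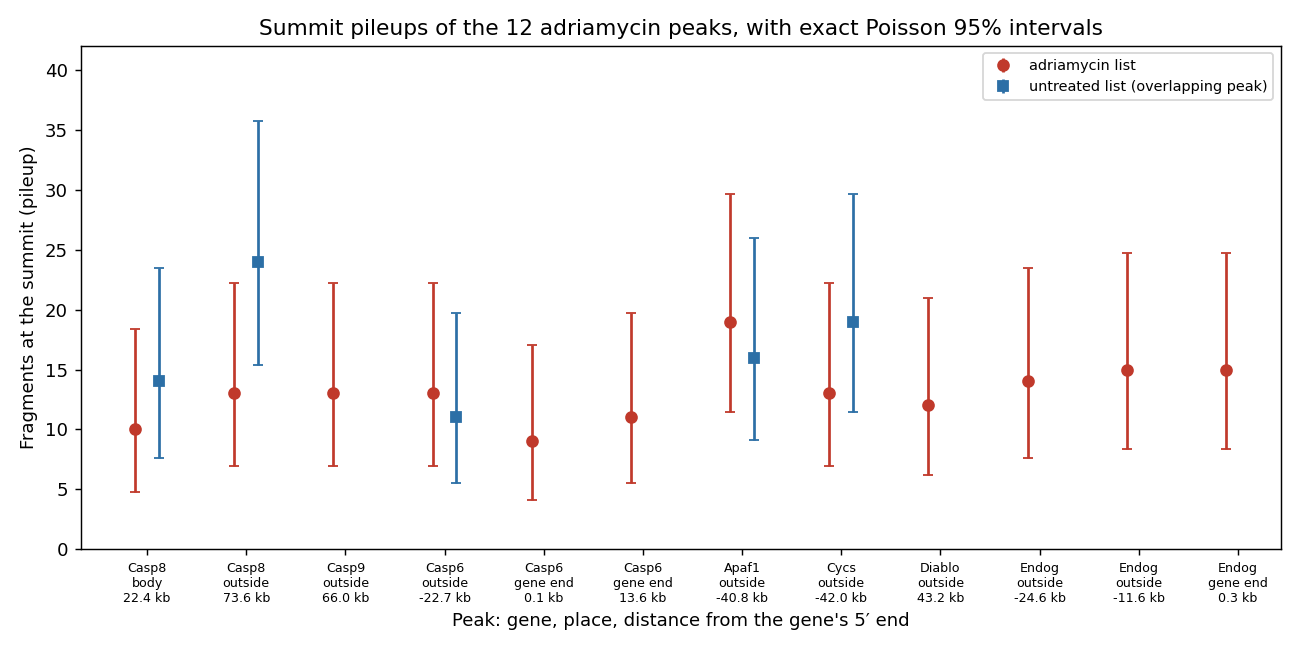
Fragments at the summit for the 12 adriamycin peaks within reach of the 8 genes (red circles) and for the overlapping untreated peak where there is one (blue squares), with exact Poisson 95% intervals. Labels give the gene, the place and the distance of the adriamycin summit from the gene's 5′ end in kb. The adriamycin pileups run from 9 to 19 fragments, and at each of the 5 shared sites the intervals of the libraries overlap.

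Among the 8 promoters the start peaks lay at middling CpG counts. Over all 17492 protein-coding genes with a listed start, the share with an adriamycin summit within 1 kb of that start rose with the number of CpG dinucleotides in the promoter window, from 1.98% at 0 to 4 CpG, through 8.40% at 5 to 9, 14.4% at 10 to 19 and 20.2% at 20 to 29, to 40.0% at 30 or more. The untreated shares in the same order were 0.902%, 3.38%, 5.10%, 7.01% and 15.0%. Apaf1 with 46, Diablo with 42 and Cycs with 32 CpG fell in the highest class and had no start peak in either list. Casp9 with 28 and Casp2 with 26 had none, and nor did Casp8 with 5. Casp6 with 16 and Endog with 15 CpG, in the middle class, had the peaks. With 8 genes this is a description, and 3 genes without a peak in a class where 40.0% have one is not a deviation that these counts can measure.

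**Figure D4:**
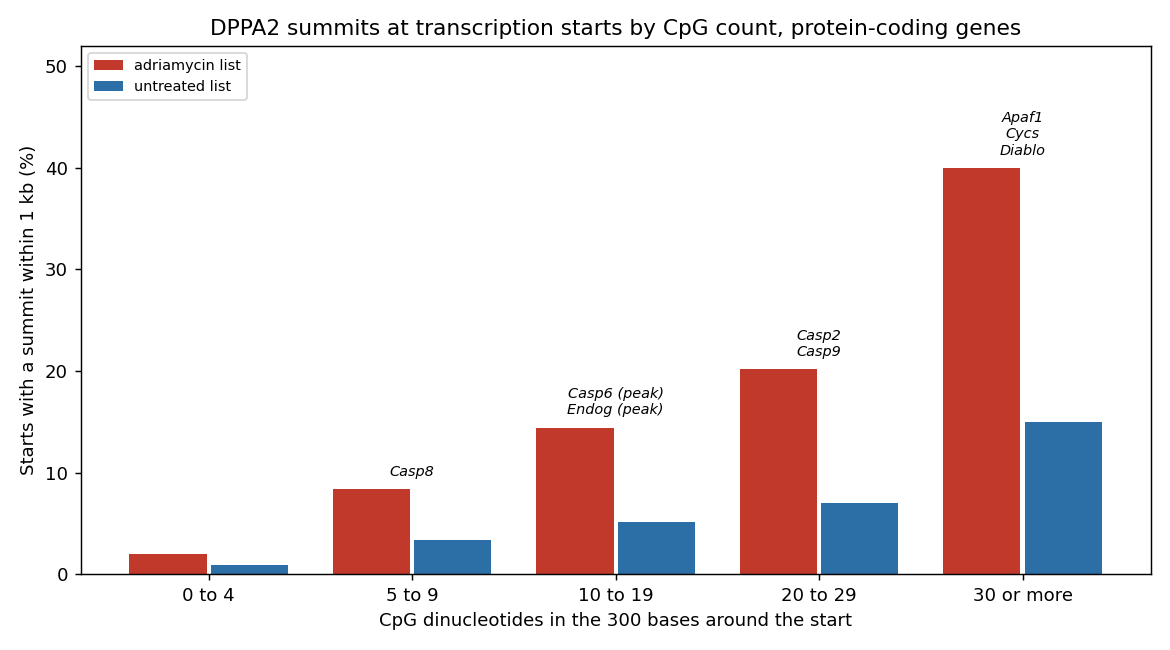
Share in percent of protein-coding genes with a summit within 1 kb of their listed start, by the number of CpG dinucleotides in the 300 bases around it, for the adriamycin list (red bars) and the untreated list (blue bars). The 8 genes are written over their class, with "(peak)" where an adriamycin summit was called. Casp6 and Endog stand at 10 to 19 CpG, where the adriamycin share is 14.4%, and Apaf1, Cycs and Diablo at 30 or more, where it is 40.0%.

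The 8 promoters were searched on both strands for short motifs. The GC box GGGCGG occurred in 7 of 8, all but Casp8, against 46.3% of all promoters, and CCAAT in 5 of 8 (Casp2, Casp8, Cycs, Diablo and Endog), against 39.0%. The NRF1 core GCATGCGC, bound by a factor of mitochondrial genes, occurred in Apaf1 and Cycs, against 3.61% of all promoters. The cAMP response element TGACGTCA occurred in Cycs, against 2.34%. TATAAA occurred in 0 of 8, against 13.3%. The p53 half-site consensus matched in 0 of 8, against 7.33%, in windows of 300 bases. Casp6 held the GC box and none of the others, and Endog a GC box and a CCAAT box. No match overlapped a match of another motif in these 8 windows. The GC box, the NRF1 core and the cAMP response element each contain a CpG, and 3 of the 8 windows held 30 or more CpG. Motif shares among promoters of like CpG count were not computed. These matches are letters in a window and not sites of binding.

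Among 28 further genes of the pathway, adriamycin gene-end peaks were called at 2 (7.14%), against 16.0% of all genes, and untreated ones at 1 (3.57%), against 5.78%. None of 4 other caspases was among them. Casp12, a caspase of the endoplasmic reticulum in rodents, had a site in its body that both lists shared, with folds of 4.76 (adriamycin) and 4.96 (untreated). Casp1, Casp4 and Casp14 had no peak at an end or in the body in either list.

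Of 6 inhibitors of apoptosis 1 had a gene-end peak, Birc6, which encodes a giant ubiquitin ligase that restrains caspases. Its adriamycin peak lay 263 bp from the listed start, with 4.67-fold enrichment and 13 fragments (6.92 to 22.2), and the nearest untreated summit to the gene was 189412 bp away. Of 6 substrates and nucleases, Rock1, a kinase gene whose product caspases cleave, had an adriamycin peak 423 bp inside one end with a fold of 4.38. Acin1, the gene of acinus, had an untreated peak 626 bp inside one end with a fold of 4.67, and 168 bp from an end of 1700123O20Rik. None of the 6 adaptors and regulators and none of the 6 other mitochondrial effectors had a gene-end peak in either list. With gene bodies included, 6 of the 28 (21.4%) had a peak with adriamycin, against 30.2% of all genes, and 2 (7.14%) untreated, against 13.2%. Adriamycin body peaks without an untreated counterpart were called in Nlrp3, Septin4 and Parp1, where 65.6% of the whole adriamycin list had none.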

How the data were processed

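DPPA2 ChIP-seq was analysed from 2 peak lists, 1 per library, that the authors deposited. The build was mm10 and the peak caller listed is MACS3 3.0.0b1, next to Bowtie2 2.5.1, deepTools 3.5.1, FastQC 0.12.1 and SAMtools, per the submitters' processing notes. For filters, the calling command and any input control, nothing is given in the sources used here. Each deposited peak carries the authors' fold (a ratio of summit over local background), −log10 p and −log10 q (q-values), a score, the whole part of 10 times −log10 q in 100.0% (adriamycin) and 99.97% (untreated) of peaks, and a further value of another kind, the summit's offset in bp.

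On chromosomes 1 to 19, X and Y the adriamycin list held 16229 peaks over 5.78 Mb and the untreated list 7043 over 2.33 Mb. Entries on other sequences (142 and 126) were left out. Pileups were recovered as the whole number of fragments that gives both fold and −log10 p (within 0.001, pseudocount 1), for 99.9% of peaks in each list. The lowest −log10 q was 1.30 (adriamycin) and 1.33 (untreated).

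Genes and promoters came from RefSeq tables of GRCm38.p6. The gene table has no strand; strand came from the promoter table, which lists all 8 members and 17492 of 21887 protein-coding genes, with the first listed start used per gene. Named genes were the 8 members, pathway genes with a gene-end or body peak, and neighbours at those peaks. Pathway genes with body peaks only were added to that rule after the values were seen, as were the CpG classes, the motifs and the pileup ratios. Some genes of the planned pathway list are not reported here. Members and lists were chosen with earlier results of these data known. No test was made, as each group had 1 library. Tools were scipy 1.17.1, numpy 2.4.6, pandas 2.3.3 and matplotlib 3.10.9 under Python 3.11.15. Recovery was tested on values simulated with the same formula, and gene-end assignment on simulated summits at lower gene ends only. Alternatives were windows, reach, stricter peaks, equal list lengths and starts alone.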

Additional observations from a re-analysis of the deposited data

How the results depend on the processing

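Shares in brackets are those of all protein-coding genes at the same setting. With a gene-end window of 500 bp, 2 members were called with adriamycin (12.2%) and 0 untreated (4.08%), with one of 2500 bp 2 (20.6%) and 0 (7.57%), and with listed starts alone 2 (15.8%) and 0 (5.91%). With a q of at most 1e-05, a fold of at least 5 or lists of equal length, 0 members had a gene-end peak with adriamycin (7.12%, 6.94% and 5.72%) and 0 untreated (2.10%, 2.14% and 5.78%), so that Casp6 and Endog were not called. With gene bodies included, the adriamycin count was 0 at that q and at equal length and 1 at that fold, and the untreated count was 1 each time. Within reach, equal length gave 3 members with adriamycin (37.0%) and 4 untreated (36.4%), so the order turned. That q gave 3 (42.7%) and 3 (18.5%), and that fold 5 (41.7%) and 3 (18.9%). A reach of 25000 bp gave 3 (52.4%) and 2 (25.5%), and one of 100000 bp 8 (81.5%) and 6 (52.3%). Pathway genes with a gene-end peak numbered 0 with adriamycin at that q, that fold and equal length and 1 with starts alone, where Rock1 has no listed start. They numbered 0 untreated at that q, at that fold and with a window of 500 bp. Shared member peaks numbered 5, and 4 where each peak had to be overlapped by 50%. No paired analysis was possible because each group had 1 library. Summits of 9 to 24 fragments limit every comparison of coverage.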
